A study of Mus musculus with 3 samples.

Results

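The 38 genes described here encode glucose transporters, the enzymes of glycolysis, the enzymes and transporters of lactate, pyruvate dehydrogenase with its kinases, and a small group of hypoxia genes. They were taken by name, not by any measured value, as the rows whose Ensembl identifier maps to the listed mouse symbol, and all 38 were found among the 41388 genes of each deposited table. RNA had been sequenced from dorsal root ganglion cells of mouse embryos at 12.5 days post coitum, sorted by flow cytometry for EGFP driven by Ret, a gene whose receptor protein binds ligands of the GDNF family. The study deposited 3 pooled libraries of a single group, so no treatment or genotype was compared. Library D pooled 60 ganglia from 3 embryos, library B 340 ganglia from 17 embryos (10 male and 7 female) and library C 300 ganglia from 15 embryos. All embryos were C57BL/6, carried the reporter, came from different mothers and gave ganglia between the lower thoracic and first sacral segments. The sample labels give the genotype as a transgene, Tg(Ret-EGFP), whereas the series text describes EGFP placed in the Ret locus of heterozygotes, so which allele was used is unresolved. Sexes were mixed in each pool per the labels.

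Total read counts were 20966139 in D, 18072199 in B and 11666241 in C, and the biological coefficient of variation between the pools was 0.51 over 13182 genes. All 12 neuronal markers examined were detected, with summed levels of 24134, 37382 and 29646 TPM (a transcript level per length and depth) in D, B and C, and so were all 9 glial and Schwann precursor markers, at 4817, 3063 and 1524 TPM. Embryonic globins and other erythroid genes were detected for 7 of 9 and summed to 408 TPM in D, against 2864 and 1578 TPM in B and C. None of 6 endothelial markers reached 1 TPM in every library. Because each library is a bulk pool, fewer cells of a type and less RNA per cell cannot be told apart.

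Glycolysis splits glucose into pyruvate and yields ATP without oxygen. Pyruvate then enters mitochondria through the pyruvate dehydrogenase complex or is reduced to lactate, which leaves the cell through monocarboxylate transporters. Several steps have alternative isoenzymes whose use differs between tissues: enolase 1 is widespread, enolase 2 is the form known as neuron-specific enolase, and enolase 3 is the muscle form. Under low oxygen the transcription factor HIF-1, whose regulated subunit is encoded by Hif1a, is stabilised and raises many glycolytic genes together with pyruvate dehydrogenase kinases.

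Isoenzymes could be told apart by short reads because their coding sequences diverge throughout. Eno1 was identical to Eno2 at 75.1% and to Eno3 at 76.7% of aligned coding bases, with no identical run longer than 20 bases. Eno2 and Eno3 were identical at 77.8% with a longest run of 23 bases. Over all 15 isoenzyme pairs aligned, the longest identical run ranged from 12 bases in Slc16a1 against Slc16a3 to 27 bases in Hk1 against Hk2. The stretches below, from the GENCODE M21 transcripts, show 90 coding bases of 3 pairs, counted from the first base of the start codon. Capitals mark the bases of the second gene that differ from the first.
Eno2 bases 40 to 129: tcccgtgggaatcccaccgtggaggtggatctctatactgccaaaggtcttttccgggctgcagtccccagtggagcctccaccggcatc
Eno3 bases 40 to 129: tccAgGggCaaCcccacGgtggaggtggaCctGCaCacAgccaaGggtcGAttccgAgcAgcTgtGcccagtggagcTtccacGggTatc
Ldha bases 118 to 207: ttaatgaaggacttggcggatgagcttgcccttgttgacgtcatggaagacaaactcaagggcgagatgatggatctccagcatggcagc
Ldhb bases 121 to 210: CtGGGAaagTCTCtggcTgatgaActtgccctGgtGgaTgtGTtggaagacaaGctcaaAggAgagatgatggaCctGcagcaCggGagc
Hk1 bases 64 to 153: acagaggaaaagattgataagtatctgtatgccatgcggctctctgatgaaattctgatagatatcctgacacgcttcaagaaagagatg
Hk2 bases 52 to 141: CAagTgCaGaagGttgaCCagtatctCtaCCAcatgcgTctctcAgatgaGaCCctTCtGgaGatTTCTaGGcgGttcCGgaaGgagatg
The muscle enolase differed from the neuronal one at 20 of these 90 bases, lactate dehydrogenase B from A at 23, and hexokinase 2 from hexokinase 1 at 31.

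The set as a whole was abundant. Its 38 genes held 0.698%, 0.662% and 0.473% of all TPM in D, B and C, where TPM is the read count divided by the deposited gene length and scaled so that every library has the same sum. Detected, meaning at 1 TPM or more in every library, were 32 of the 38 genes, beside 11896 of all 41388 genes (28.7%). Pfkfb2, Pdk1, Pdk4, Vegfa, Egln3 and Adm did not reach that limit in at least 1 library. The 16 glycolytic enzymes from the hexokinases to pyruvate kinase were all detected and summed to 4473, 4678 and 2955 TPM in D, B and C. Aldoa and Pkm together made up 75.9%, 74.9% and 69.5% of that sum, so a pair of enzymes carried most of the pathway's counted RNA.

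**Figure D1:**
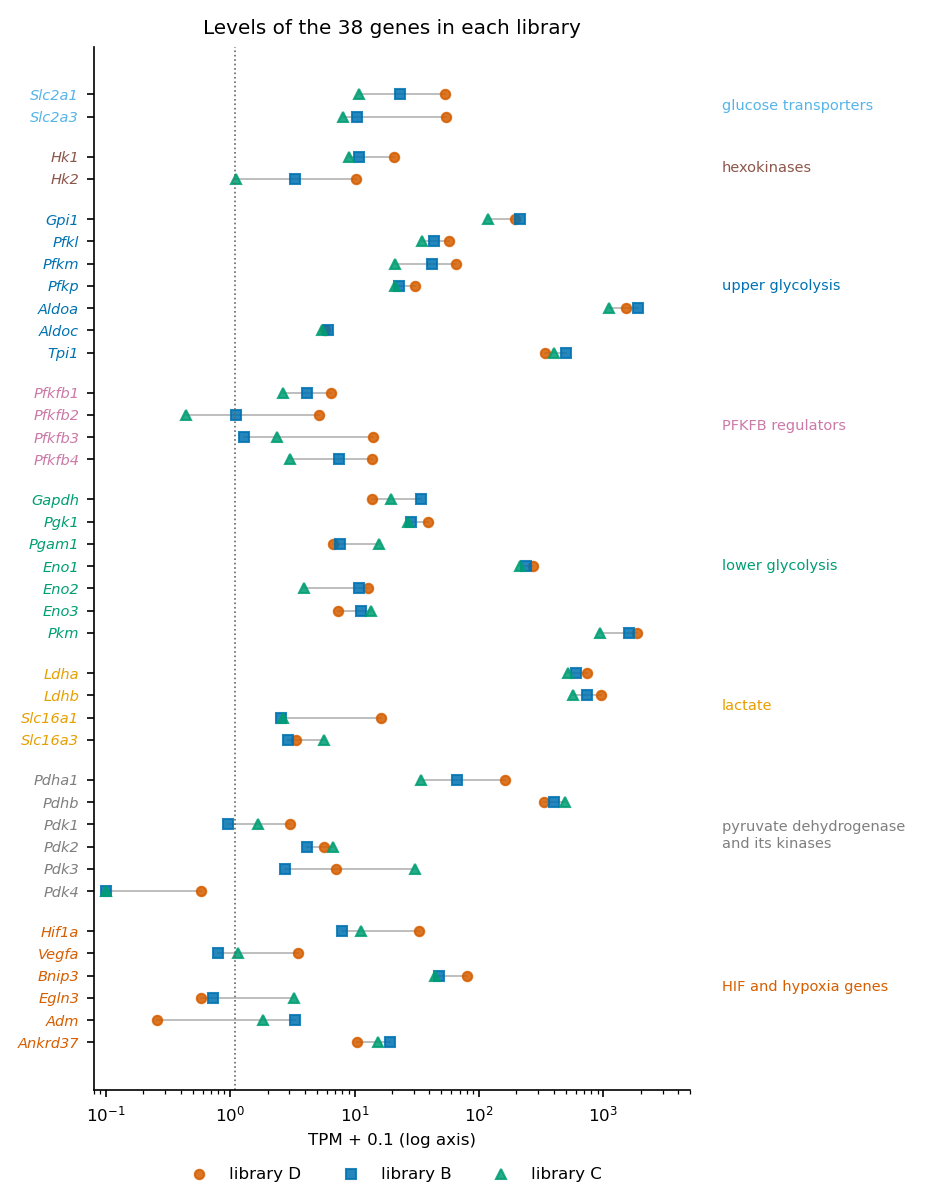
Level of each gene in library D (circles), B (squares) and C (triangles), as TPM + 0.1 on a log axis, grouped by role. A grey line joins the lowest and highest library, and the dotted line marks 1 TPM. Aldoa (mean 1518 TPM) and Pkm (mean 1466 TPM) lie at the top, and the low end holds Pdk4, which had 0 counts in B and C.

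Glucose enters these cells' pathway through Slc2a1 (GLUT1), the widespread transporter, and Slc2a3 (GLUT3), the transporter known from neurons. Slc2a1 measured 53.3, 23.2 and 10.7 TPM in D, B and C, and Slc2a3 measured 54.0, 10.3 and 7.94 TPM. Library D was highest for both. The log2 ratio of Slc2a1 to Slc2a3 was -0.02 in D, 1.16 in B and 0.43 in C, a mean of 0.52 ± 0.60 (SD, n = 3), so neither transporter led beyond the spread between pools. The deposited length of Slc2a3, 7245 bases, is its union of exons and far exceeds the 3959 bases of its principal transcript. With principal transcript lengths, a choice made after seeing the data, the mean ratio turned to -0.54. The order of these transporters thus depended on the length used.

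Hexokinases trap glucose by phosphorylation. Hk1, the form common in brain, measured 20.6, 10.7 and 8.87 TPM in D, B and C, and Hk2, the form regulated by insulin and hypoxia, measured 10.2, 3.21 and 1.01 TPM. Hk1 was above Hk2 in every library, with a log2 ratio of 1.02 in D, 1.74 in B and 3.14 in C (1.96 ± 1.08, SD, n = 3). Hk1 therefore held 66.9%, 76.9% and 89.8% of their summed TPM. Its direction held under every length choice tried. Hk3, another hexokinase, had 3, 2 and 0 counts in D, B and C.

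Gpi1, which converts glucose 6-phosphate to fructose 6-phosphate, measured 194, 214 and 119 TPM in D, B and C. Phosphofructokinase, the main regulated step, is a tetramer of liver, muscle and platelet type subunits, and all were present at similar levels. Pfkl measured 57.6, 43.0 and 34.8 TPM, Pfkm 64.8, 41.5 and 20.9 TPM, and Pfkp 30.2, 22.8 and 21.2 TPM in D, B and C. Pfkl held the largest share in B (40.1%) and C (45.2%), and Pfkm in D (42.4%). The log2 ratio of Pfkl to Pfkm averaged 0.21 ± 0.47 and that of Pfkp to Pfkm -0.65 ± 0.59 (SD, n = 3). Pfkl exceeded Pfkp in all 3 libraries, by 0.93, 0.92 and 0.72 on the log2 scale. The order of Pfkp was not stable. Its deposited length is 9395 bases and its principal transcript has 4145 bases, and with principal lengths the mean ratio of Pfkl to Pfkp was -0.09 and that of Pfkp to Pfkm 0.49.

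Aldolase A had the highest mean level of the set and was ahead of pyruvate kinase in B and C but not in D. Aldoa, on chr7:126795234-126800751 in the deposited annotation, measured 1533, 1906 and 1116 TPM in D, B and C, which placed it 64 among all genes by mean TPM. Aldoc, the brain form, measured only 5.69, 5.98 and 5.37 TPM, the smallest spread in the set relative to its mean (5.68 ± 0.31 TPM, SD, n = 3). The log2 ratio of Aldoa to Aldoc was 8.08, 8.32 and 7.70 in D, B and C, a mean of 8.03 ± 0.31 (SD, n = 3) or 261-fold. Aldoa held at least 99.5% of the pair's TPM in each library. Tpi1, triose phosphate isomerase, measured 341, 504 and 399 TPM and ranked 416.

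The PFKFB enzymes make and degrade fructose 2,6-bisphosphate, the strongest activator of phosphofructokinase. All measured low. Pfkfb1 stood at 6.39, 4.06 and 2.57 TPM, Pfkfb2 at 5.08, 1.01 and 0.345 TPM, Pfkfb3 at 14.0, 1.18 and 2.30 TPM, and Pfkfb4 at 13.7, 7.40 and 2.95 TPM in D, B and C. Library D was the highest for each. Pfkfb4 led the family in B (54.2%) and C (36.1%), while Pfkfb3 led in D (35.7%, beside 35.0% for Pfkfb4). Pfkfb2 was below Pfkfb3 in every library, with a mean log2 ratio of -1.48 ± 1.25 (SD, n = 3). Of Pfkfb2's exons, 1416 bases are shared with Gm29427 and Yod1 without strand information, so part of its reads could belong to those genes.

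The later steps of glycolysis were uneven. Gapdh, glyceraldehyde 3-phosphate dehydrogenase, measured 13.8, 34.4 and 19.4 TPM from 272, 796 and 299 counts in D, B and C and ranked only 4489. Pgk1, phosphoglycerate kinase, measured 38.8, 28.2 and 26.6 TPM, and Pgam1, phosphoglycerate mutase, 6.66, 7.51 and 15.6 TPM. These 3 consecutive enzymes thus sat far below their neighbours Tpi1 and Eno1 in every library. Pkm, pyruvate kinase, closed the pathway at 1863, 1596 and 938 TPM in D, B and C and ranked 65.

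Enolase 1 dominated its family. Eno1, on chr4:150236721-150248879, measured 273, 239 and 213 TPM in D, B and C, from 11305, 11590 and 6863 counts. Eno2, on chr6:124760053-124769673, measured 12.8, 10.7 and 3.79 TPM from 464, 455 and 107 counts. Eno3, on chr11:70657202-70662513, measured 7.24, 11.1 and 13.5 TPM from 97, 174 and 141 counts. The lowest Eno1 library thus lay far above the highest of either other gene, and Eno1 held 93.2%, 91.6% and 92.5% of the family's TPM. The log2 ratio of Eno1 to Eno2 was 4.41 in D, 4.48 in B and 5.81 in C, a mean of 4.90 ± 0.79 (SD, n = 3) or 29.9-fold. Against Eno3 it was 5.24, 4.43 and 3.98, a mean of 4.55 ± 0.64 or 23.4-fold. The neuronal and muscle enolases did not separate: Eno2 over Eno3 was 0.82 in D, -0.05 in B and -1.83 in C, a mean of -0.35 ± 1.35. Eno1 kept its lead when the count alone was used without length (5.09 over Eno2 and 6.18 over Eno3) and with principal transcript lengths (5.56 and 5.80).

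Lactate dehydrogenase interconverts pyruvate and lactate as tetramers of the A subunit, known from muscle, and the B subunit, known from heart. Both genes were among the most abundant of the set. Ldha measured 745, 599.8 and 525 TPM and Ldhb 958, 736 and 569 TPM in D, B and C. Ldhb was slightly higher in each library, with a log2 ratio of Ldha to Ldhb of -0.36, -0.29 and -0.12 (-0.26 ± 0.13, SD, n = 3), and held 56.2%, 55.1% and 52.0% of the pair. That order reversed to 0.23 with principal transcript lengths and to 0.67 without any length, so the subunits were close to equal and their order was not settled by these tables.

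Lactate leaves or enters through Slc16a1 (MCT1) and Slc16a3 (MCT4), an exporter known from glycolytic cells. Slc16a1 measured 16.3, 2.48 and 2.56 TPM in D, B and C, from 556, 99 and 68 counts, and Slc16a3 measured 3.27, 2.81 and 5.61 TPM. Slc16a1 held 83.3% of the pair in D, against 46.8% in B and 31.3% in C. Without D the mean log2 ratio of Slc16a1 to Slc16a3 changed from 0.33 to -0.66, so library D decided which of the transporters was ahead. Basigin (Bsg), the chaperone that both need at the cell surface, measured 619, 843 and 1481 TPM, and embigin (Emb), a related partner, 143, 115 and 179 TPM. Slc16a7 (MCT2), the high-affinity transporter of neurons, measured 29.4, 4.16 and 5.44 TPM. It was above Slc16a3 in D and B but not in C.

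Pyruvate dehydrogenase needs both the alpha and the beta subunit of its first enzyme. Pdha1 measured 161, 66.7 and 34.2 TPM and Pdhb 331, 401 and 492 TPM in D, B and C. The beta subunit gene was higher in each library and the gap differed between libraries, with a log2 ratio of Pdha1 to Pdhb of -1.04, -2.59 and -3.85 (-2.49 ± 1.41, SD, n = 3). The kinases, which switch the complex off, were low apart from Pdk3 in C. Pdk1, the kinase best known as a HIF-1 target, measured 2.94, 0.869 and 1.59 TPM, Pdk2 5.54, 4.03 and 6.59 TPM, and Pdk3 7.04, 2.64 and 30.6 TPM. Pdk4 had 13, 0 and 0 counts, where 0 allows up to 3 counts, or 0.166 CPM in B and 0.257 CPM in C. Pdk1 was below Pdk2 and below Pdk3 in all 3 libraries, with mean log2 ratios of -1.73 ± 0.71 and -2.38 ± 1.65. Pdk3 held 44.0% of the family in D, 35.0% in B and 78.9% in C, and Pdk2 led in B with 53.5%.

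Of the hypoxia genes, Hif1a measured 33.1, 7.77 and 11.1 TPM in D, B and C. Bnip3, a mitophagy receptor and HIF target, was the highest of the group at 80.1, 47.9 and 44.0 TPM, and Ankrd37, another HIF target, measured 10.4, 19.0 and 15.2 TPM. Vegfa, the angiogenic growth factor, reached 3.38, 0.697 and 1.05 TPM. Egln3, the prolyl hydroxylase that marks HIF for destruction and is itself induced by it, measured 0.487, 0.625 and 3.13 TPM from 10, 15 and 50 counts. Adm, the vasodilator peptide adrenomedullin, measured 0.160, 3.22 and 1.75 TPM from 2, 47 and 17 counts. The target genes of this group did not share an order of libraries: Vegfa and Bnip3 were highest in D, Ankrd37 and Adm in B, and Egln3 in C.

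**Figure D2:**
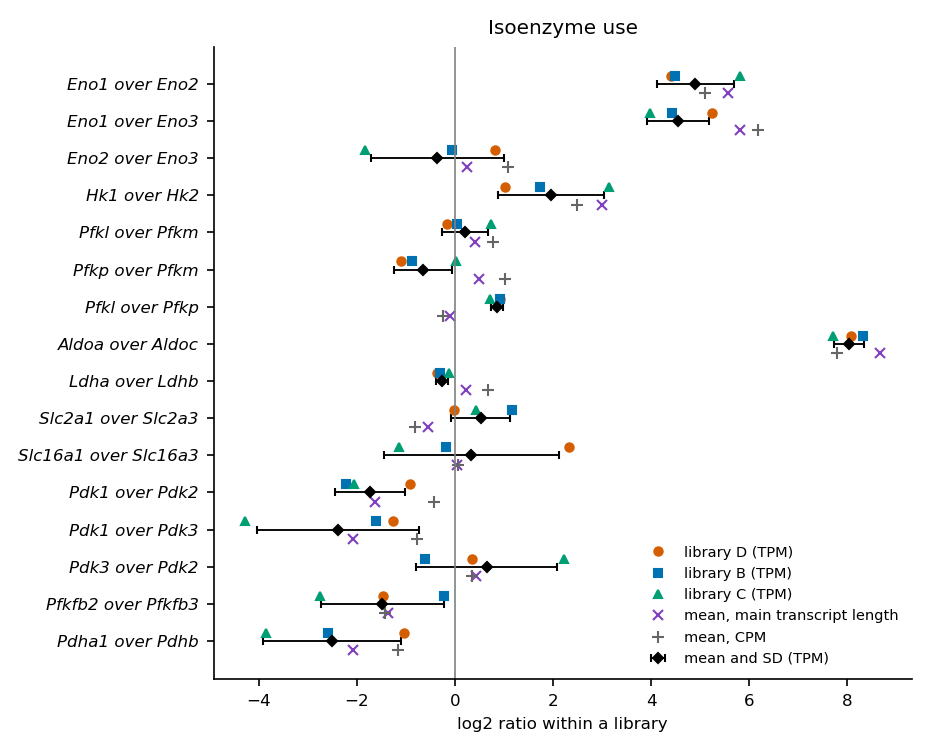
Log2 ratio within a library for the 16 gene pairs (colours: libraries D, B and C; black diamonds with bars: mean and SD of TPM ratios, n = 3). Crosses give the mean with principal (main) transcript lengths and plus signs the mean of CPM ratios. Aldoa over Aldoc and Eno1 over Eno2 or Eno3 lie far from 0 on every scale, whereas the Pfkp, Ldha and Slc2a1 ratios cross 0 with the length used.

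Across the 16 pairs, 10 had the same sign in all 3 libraries, 5 positive and 5 negative. An exact two-sided sign-flip test over 3 libraries cannot go below p = 0.25, which all 10 reached (0.4 after Benjamini-Hochberg adjustment over the 16 pairs), so no ratio could pass 0.05 in this design. For these 10 pairs p followed from the shared sign alone, whatever the spread between the pools. It therefore does not measure that spread, and it says nothing beyond these pools.

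The low Gapdh count stood beside many near-identical sequences elsewhere in the genome. Each principal transcript was cut into windows of 50 bases and each window looked up in the GENCODE M21 transcripts of all other genes. Of the 1371 windows of Gapdh, 1131 (82.5%) occurred in another gene, 222 genes in all, of which 213 are annotated as pseudogenes. The copies Gm7336 on chromosome 7 and Gm10359 on chromosome 5 matched all 999 coding bases of Gapdh, and Gm12033 on chromosome 11 differed at 1. The deposited tables count 192 of these pseudogenes, with summed counts of 3247, 2221 and 1737 in D, B and C, against 272, 796 and 299 for Gapdh itself. Copies therefore held more reads than the parent gene in every library, and the deposited Gapdh level cannot be read as its transcript level. How reads with several matching places were handled is not given in the sources used here.

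**Figure D3:**
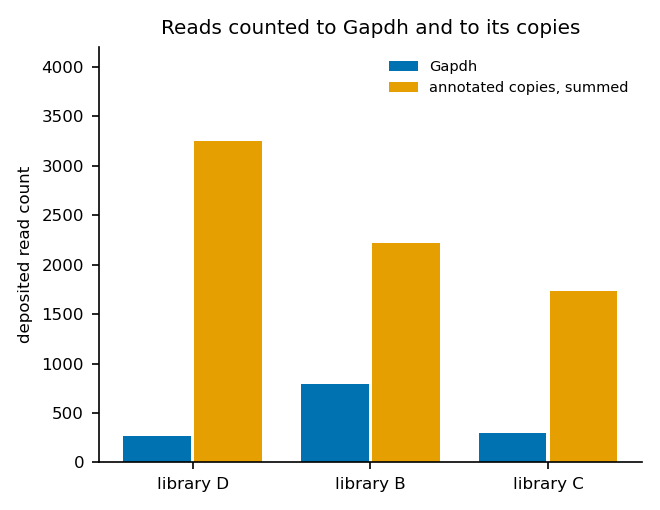
Deposited read counts of Gapdh (blue) and of its 192 annotated pseudogene copies summed (orange) in libraries D, B and C. The summed copies exceed the parent gene in each library, with 3247 against 272 counts in D.

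The other enzymes below their neighbours shared sequence as well. Pgk1 had 68.0% of its windows in other genes and Pgam1 41.5%, and the sharing genes in the tables had no more than 6 counts in any library. Because the handling of reads with several matching places is not given, these counts do not show where such reads went. Eno1 had 72.2% shared and carried at least 6863 counts in each library, with 56, 202 and 22 in D, B and C summed over the sharing genes. The part of shared sequence in these levels was not tested. The share was 48.9% for Bnip3, 30.5% for Pkm, 30.3% for Pdhb, 27.0% for Ldhb, 19.6% for Gpi1, 17.1% for Ldha, 13.9% for Aldoa and 7.5% for Tpi1. The remaining 26 genes had at most 1.4%, including every hexokinase, phosphofructokinase and monocarboxylate transporter, Eno2, Eno3 and Aldoc. If reads from shared windows had all been left uncounted, dividing by the unshared windows would give a mean log2 ratio of 7.41 for Eno1 over Eno2 and 7.64 for Eno1 over Eno3. That setting was added after seeing the data, and whether it describes the counting was not tested.

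**Figure D4:**
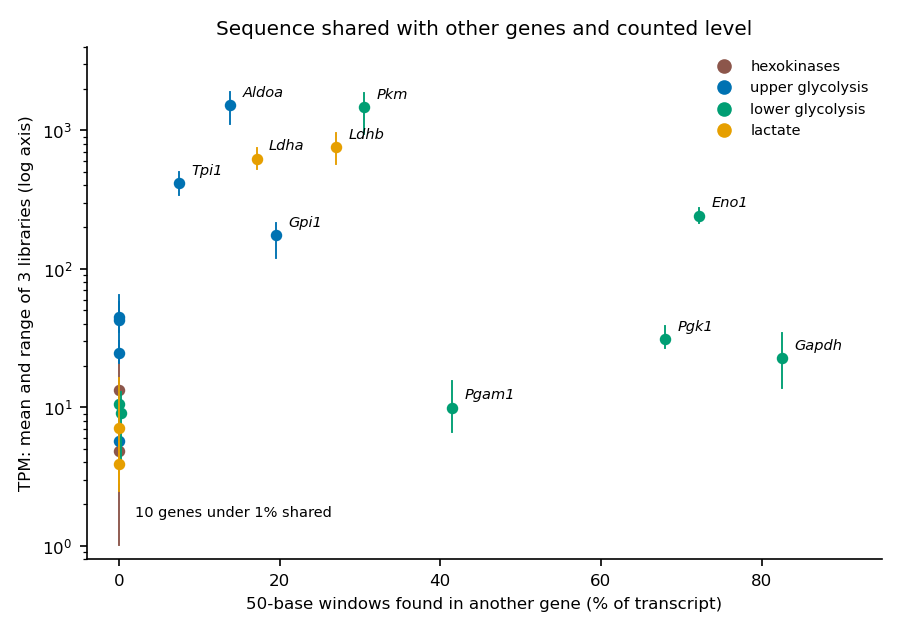
Share of each transcript's 50-base windows that occur in another gene (percent) against TPM on a log axis, for the 20 hexokinase, glycolysis and lactate genes. Points are means and bars the range of 3 libraries. Gapdh, Pgk1 and Pgam1 combine a high share with a low level, while Eno1 combines 72.2% with 241 TPM.

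Each library was then set against the other pair with edgeR's quasi-likelihood test over 15727 genes. This asks whether the pools differed beyond gene-wise noise. With 1 library on one side, 1 degree of freedom is left, and that library's own scatter is taken to be as large as that of the other pair. In D against B and C, 37 of the 38 genes were tested (Pdk4 was too low), 16 were higher in D and 21 lower, and none passed an adjusted p of 0.05. The background was the same, with 0% of all genes called. Unadjusted p-values under 0.05 occurred for 10 of the 37 genes, a share of 27.0% beside 19.4% of all genes tested. DESeq2 called Slc2a3 and Pfkfb3, 2 of 38, where it called 2.93% of all genes. Without a filter on low counts edgeR called those and also Pfkfb2, Slc16a1 and Adm, 5 of 38, where it called 6.51% of all genes. DESeq2 gave no adjusted p for Adm, Egln3 and Pdk4 in D, and these stand among the 38 as not called. Its shares of all genes, here and below, likewise count genes without an adjusted p as not called. The median edgeR log2 ratio in D was -0.14 over the 37 genes and -0.02 over all genes tested.

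Higher and lower members of the D comparison followed their roles in part. Both glucose transporters, both hexokinases and all 4 PFKFB genes were on the higher side, while 6 of 7 upper glycolysis genes and 6 of 7 lower glycolysis genes were on the lower side. Slc2a3 had 144, 37.4 and 29.6 CPM (counts scaled to the library total) in D, B and C, and its log2 ratio was 1.86 ± 0.44 (approximate SE, adjusted p = 0.191, edgeR). Slc16a1 had 26.5, 5.48 and 5.83 CPM and a ratio of 1.99 ± 0.51 (adjusted p = 0.194, edgeR). For Pfkfb3 the CPM were 36.2, 4.15 and 8.31 and the ratio 2.29 ± 0.59 (adjusted p = 0.195, edgeR). In each of these genes D lay above both other libraries, and B and C lay close together relative to D. On the lower side, Gapdh had 13.0, 44.0 and 25.6 CPM (-1.66 ± 0.58, adjusted p = 0.229, edgeR), Tpi1 277, 556 and 453 CPM (-1.10 ± 0.41, adjusted p = 0.239) and Pdhb 181, 298 and 376 CPM (-1.14 ± 0.44, adjusted p = 0.244). Adm had the lowest ratio of the set, at 0.0954, 2.60 and 1.46 CPM from 2, 47 and 17 counts (-4.54 ± 1.24, adjusted p = 0.200, edgeR).

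The D ratios moved with gene length. Over the 37 genes the Spearman correlation of the log2 ratio with deposited length was 0.66, a description across genes of the same 3 libraries, beside 0.41 over 15633 genes. Of 18 genes longer than the median of 3263 bases, 13 were higher in D with a median log2 ratio of 0.63, and of the 19 others 3 were higher with a median of -0.70. The mean deposited gene length per read was 4457 bases in D, 3421 in B and 3349 in C. With a smooth trend of length and GC content removed, the correlation over the 37 genes was 0.40, no member passed, and 13 genes were on the higher side and 24 on the lower. The ratio of Slc2a3 was then 0.82, of Slc16a1 1.19, of Pfkfb3 1.34 and of Hif1a 0.04 (1.10 ± 0.49 before), while the median over all genes tested moved to -0.32. Sides were counted about no change, which lay above that median, so the lower side gained genes at large in this fit. The median over the 37 genes was then -0.33. Both glucose transporters stayed on the higher side, but 1 of 2 hexokinases and 1 of 4 PFKFB genes did not. That hexokinase, Hk1 (-0.29), lay above the median over all genes, and that PFKFB gene, Pfkfb1 (-0.47), below it. Of the upper glycolysis genes all but Pfkm were lower in either fit. Of the lower glycolysis genes 6 of 7 were lower in either fit, but Eno2 (0.13 before, -0.21 after) and Pkm (-0.13 before, 0.40 after) changed sides.

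**Figure D5:**
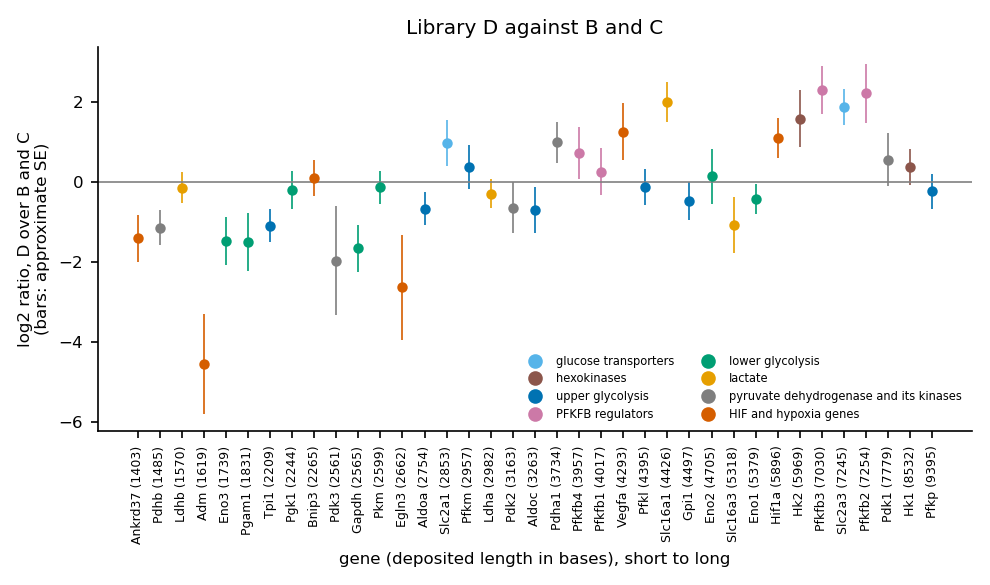
Log2 ratio of library D over B and C (edgeR, bars: approximate SE) for the 37 genes tested, ordered by deposited length from short to long and coloured by role. Ratios above 0 mean higher in D. Most short genes lie below 0 and most long genes above it.

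Length also separates TPM from CPM between libraries. For the same CPM per kilobase a gene received 2.72 TPM in D, against 2.00 in B and 1.95 in C. On the TPM scale 27 of the 37 genes were above the mean of B and C in D, and for 11 of them (Aldoa, Aldoc, Eno1, Gpi1, Ldha, Ldhb, Pdk2, Pfkl, Pfkp, Pgk1 and Pkm) the fitted ratio had the other sign. For those 11 genes the direction between D and the rest therefore depends on the scale, whereas Tpi1 and Pdhb were lower in D on both scales. Ratios within a library do not use this scaling. A trend with gene length can still move a ratio between genes of unlike length. Eno1 (5379 bases) over Eno3 (1739 bases) was highest in D, whereas Pfkp (9395 bases) over Pfkm (2957 bases) was lowest there. The part of the length trend in the ratios was not tested.

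Markers of other cell types differed in library D as well, none past the threshold in the filtered edgeR fit. Erythroid markers were lower in D for 9 of 9 genes. Glial markers were higher for 7 of 9, with a median log2 ratio of 0.89, and Fabp7 (-0.51) and Sox10 (-0.15) were lower. The most extreme glial ratio was that of Erbb3 (3.11), at 163 TPM in D, against 14.2 and 9.06 TPM in B and C. Markers of dividing cells were higher for 4 of 5. Their log2 ratios were 1.76 for Ccnb1, 1.66 for Top2a, 0.33 for Cdk1 and 0.06 for Pcna, while Mki67 was lower (-1.01). On the TPM scale, whose factor was largest in D, these markers summed to 433 TPM in D, against 206 and 131 TPM. Sympathetic markers were lower for 7 of 8, with a median log2 ratio of -2.19, and summed to 132 TPM in D, against 292 and 233 TPM. Neuronal markers were lower for 10 of 12. Mesenchymal markers were higher for 4 of 8 and lower for 4. Their part in the D values of the transporters, hexokinases and PFKFB genes was not tested, and embryo number and library cannot be told apart.

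In library C against B and D, 1 gene of the 37 passed. Pdk3, on chrX:93764607-93832201, had 470 counts in C, against 61 in B and 139 in D, which is 40.3 CPM in C, against 3.38 and 6.63 CPM. Its log2 ratio was 3.19 ± 0.89 (approximate SE, adjusted p = 0.045, edgeR). Of all genes tested 0.782% were called, 119 higher and 4 lower, so a single call among 37 says nothing about the set. DESeq2 also called Pdk3 alone (adjusted p = 0.018), against 0.73% of all genes. Without the filter on low counts edgeR did not (3.14, adjusted p = 0.094), where it called 0.408% of all genes, and over all settings the adjusted p of Pdk3 ranged between that value and 3.95e-05. Unadjusted p under 0.05 was found for Pdk3, Egln3, Hk2 and Pfkfb2, 4 of 37 beside 6.91% of all genes. Egln3 was higher in C (4.29 CPM, against 0.83 in B and 0.477 in D), and Hk2 was lower (3.09 CPM in C, against 9.57 and 22.3 CPM).

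All 4 PFKFB genes, both hexokinases and both glucose transporters were on the lower side in C, none of them past the threshold. Library D, where each of these genes was highest, was in the reference, so this was not independent of the D comparison. Between C and B, Pfkfb3 was higher in C (8.31 against 4.15 CPM) and the others were lower. The summed glial markers were lowest in C (1524 TPM, against 3063 in B and 4817 in D). So were the summed markers of dividing cells, skeletal muscle, mesenchyme and endothelium. Of the erythroid markers, Hbb-bs had the highest log2 ratio in C (3.39, from 402 counts, against 113 in B and 14 in D). Hba-x and Hbb-bh1 were lower in C. The part of these markers in the C values was not tested. In library B against C and D, 21 of 37 genes were higher and none passed, against 0% of all genes in edgeR. Pdk3 alone had an unadjusted p under 0.05 there (-2.81 ± 1.29, adjusted p = 1.00 in edgeR), beside 1.11% of all genes. DESeq2 called none of the set in B, against 0.00425% of all genes.

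Related genes outside the 38 were read from lists of the same pathways. Of 16 other isoenzymes of glycolysis and lactate, 5 were detected, with Bpgm (bisphosphoglycerate mutase, which makes the red cell regulator of haemoglobin) at 53.5, 63.5 and 57.3 TPM and Slc16a7 next. Testis or liver forms were at or near 0: Pgk2 had 0 counts in every library, Pklr 2, 0 and 0, and Ldhc 4, 2 and 4. All 8 genes of pyruvate entry were detected, led by Dld (dihydrolipoamide dehydrogenase) at 313, 120 and 91.7 TPM in D, B and C and by Mpc2 (a subunit of the mitochondrial pyruvate carrier) at 32.6, 55.9 and 127 TPM. None of either list passed in any library in the filtered edgeR fit. DESeq2, and edgeR with the length and GC trend removed, called Mpc2 alone, lower in D. Without the filter, edgeR called Mpc2 and, higher in D, Slc16a7 and Pdp2 (a phosphatase that reactivates pyruvate dehydrogenase, 111, 26.0 and 19.8 TPM).

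Of 7 pentose phosphate genes 6 were detected, led by Taldo1 (transaldolase) at 469, 464 and 449 TPM and Tkt (transketolase) at 216, 189 and 102 TPM. Taldo1 thus stood above every hexokinase and phosphofructokinase. Pgls (6-phosphogluconolactonase) passed in C with 3255 counts, against 219 in B and 129 in D (log2 ratio 5.05 ± 0.95, adjusted p = 0.00024, edgeR). It was also called lower in D without the filter and with the trend removed. Of 4 transport partners, none passed in the filtered fits, and Bsg was called lower in D without the filter.

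Of 17 hypoxia regulators and other targets 13 were detected. Higd1a, a mitochondrial protein, led with 105, 132 and 105 TPM, followed by Egln2, the prolyl hydroxylase PHD1, with 26.7, 36.4 and 95.3 TPM. Epas1, which encodes HIF-2 alpha and is known from endothelium and sympathetic cells, measured 0.415, 1.57 and 0.408 TPM, and Car9, a commonly used hypoxia marker, 2.93, 1.15 and 0.0724 TPM. In the D comparison 13 of 17 were higher and 4 lower, none passing in the filtered edgeR fit. With the length and GC trend removed, 7 were higher and 10 lower. These sides were counted about no change, although the median over all genes was negative in that fit. DESeq2 called Arnt, the partner subunit of HIF-1, and the histone demethylase Kdm3a, both higher in D. Unfiltered edgeR called the same pair and, lower in D, Egln2. Arnt measured 13.9, 1.90 and 1.15 TPM and its deposited length is 8007 bases.

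The promoters were searched for the core of the hypoxia response element, written as ACGTG or GCGTG and counted on both strands (CACGT or CACGC), so that CACGTG counts as 2 overlapping matches. RefSeq promoter windows of 300 bases (250 before and 50 after the start, GRCm38.p6) were matched for 37 of the 38 genes, Slc2a3 being the exception. Only the first listed window of each gene was searched, so any other start was not read. At least 1 match was present in 29 of the 37 (78.4%) and in 11836 of all 27025 promoters (43.8%). The windows of these genes were also richer in CG, with a median of 20 CG dinucleotides beside 7 over all promoters. Among promoters with 15 or more CG, 21 of 26 windows of these genes (80.8%) and 6812 of 9514 windows in all (71.6%) held a match. The next stretches of 60 bases upstream of the start show the gene with most matches in its window (Ldha), a glycolytic enzyme (Pgk1) and a HIF target with a low level (Adm). The whole windows held 7, 2 and 2 matches, and the stretches printed hold 3, 2 and 1. They are written along the gene's strand, which is plus for all of them, and capitals mark the matches.
Ldha chr7:46845743-46845802: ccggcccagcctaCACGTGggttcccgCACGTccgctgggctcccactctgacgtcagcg
Pgk1 chrX:106186942-106187001: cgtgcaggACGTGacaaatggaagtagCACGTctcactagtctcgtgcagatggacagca
Adm chr7:110627576-110627635: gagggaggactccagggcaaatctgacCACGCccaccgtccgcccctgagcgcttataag
Of the 6 hypoxia genes 5 held a match and Vegfa held none in this window. Genes with a match ranged from Ldhb at a mean of 754 TPM to Pdk4 at 0.160 TPM. Aldoa and Pkm, the most abundant, held none in the window searched, which had 0 CG for Aldoa and 27 for Pkm. Whether these windows are the starts in use was not tested. A match is a description of letters, not of binding.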

How the data were processed

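Per the file headers, each deposited table lists 41388 Ensembl genes with their exons, a length, a read count, a CPM and an RPKM. Recomputed from the counts, the deposited CPM is the share of the library total, and RPKM, as deposited, is CPM per kilobase of the listed length. Only the counts and lengths were used. Per the labels' protocols, cDNA was made with a kit for small RNA amounts whose reads carry no strand. Build GRCm38.p2, Subread and featureCounts 1.4.5 appear, without roles, in the submitters' processing notes. Not given in the sources used here are the annotation release, the strand setting and the treatment of multiply matching reads. Reads carry no molecular identifiers and PCR copies are not separate molecules, so limits from counts cover counting error only.

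Symbols were available for 40254 identifiers. TPM was computed over all genes of a library. Library comparisons used edgeR 4.0.16 (TMM, filterByExpr, quasi-likelihood, Benjamini-Hochberg threshold 0.05, R 4.3.3) on all genes, with approximate standard errors from the log2 ratio and its F statistic. Alternatives were DESeq2 1.42.0, its size factors, no filter, a length and GC trend from mgcv 1.9.3, CPM without length, pseudocounts of 0.1 and 1 TPM, detection limits of 0.5 and 5 TPM, named gene copies added and each library left out. Principal transcript lengths and unshared windows were added after seeing the data. Transcripts came from GENCODE M21 and were aligned with Biopython 1.88. Each of the 38 genes is named, with the 2 genes of highest mean TPM in each pathway list, any gene called in any setting and any gene a result turns on. Genes beyond this rule (Hk3, Pgk2, Pklr, Ldhc, Epas1, Car9, Erbb3, Fabp7, Sox10 and the markers of dividing cells) were named after their values were seen. Members and lists were chosen with earlier results of these data known.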

Additional observations from a re-analysis of the deposited data

How the results depend on the processing

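Of 286 recomputed values 245 stayed the same by the rule for their kind, 14 moved, 19 reversed, 7 gained and 1 lost a call. Ratios had to keep their sign, and shares to shift by less than their SD. Counts and medians had to stay within a set tolerance, and single genes to keep their call. Values counted as the same could still change order. The share of Slc16a1 went from 53.8% to 39.1% without D, and the member median in C from -0.10 to 0.06 with the trend removed. Eno1 over Eno2 and Eno3, Hk1 over Hk2, Aldoa over Aldoc, Pdk1 under Pdk2 and Pdk3, Pfkfb2 under Pfkfb3 and Pdha1 under Pdhb kept their direction in every setting run. Without gene length, with principal transcript lengths and with unshared windows only, mean log2 ratios reversed to 1.08, 0.24 and 0.23 for Eno2 over Eno3, to 1.02, 0.49 and 0.48 for Pfkp over Pfkm, to -0.24, -0.089 and -0.086 for Pfkl over Pfkp, to 0.67, 0.23 and 0.032 for Ldha over Ldhb, and to -0.82, -0.54 and -0.54 for Slc2a1 over Slc2a3. These settings change only the length divided by. Leaving out each library gave -0.94 to 0.39 for Eno2 over Eno3 (reversed without C), -0.057 to 0.39 for Pfkl over Pfkm (without C), -0.66 to 1.07 for Slc16a1 over Slc16a3 (without D) and -0.13 to 1.28 for Pdk3 over Pdk2 (without C). Without length the shares were 95.5% for Eno1, 35.9% for Pfkl, 38.6% for Ldhb and 36.5% for Slc2a1.

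In D, members called were 0, against 5 without the filter and 2 with DESeq2. Genes called were 0, against 8 with DESeq2 size factors, 1534 without the filter, 286 with the trend removed (123 higher, 163 lower) and 690 with DESeq2. In B genes called were 0, against 3 with the trend removed and 1 with DESeq2. In C members called were 1, against 0 without the filter, and genes called 123, against 274 with the trend removed, where 20 of 37 members were higher in place of 16. The cause was not tested. Removing a library from these fits leaves no residual degree of freedom, so they were not rerun. No paired analysis was possible because the series has a single group.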
